A study of Mus musculus with 14 samples.

Results

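The resident Kupffer cell identity genes were Clec4f, Vsig4, Cd5l, Timd4, Marco, Adgre1, Csf1r, Cd163, Folr2 and Mpeg1. They were chosen by name as markers of the macrophages that live in the liver, with no threshold on a measured value. All 10 were found among 19938 genes with a probe set of their own, each with 1 probe set. They were compared between 7 livers of HFM mice and 7 livers of HFS mice. Both groups were male C57BL/6 mice, 24 weeks of age, that had eaten a high-fat diet for 20 weeks. HFM mice had been given human bone marrow-derived mesenchymal stem cells (MSCs) carrying GFP through the tail vein, and HFS mice had been given the vehicle alone, which the labels call saline and the methods PBS. Livers were taken 24 hours later. All MSCs came from the same donor, no lean mice were analysed here, and 1 liver of each group was lost to damage in transit.

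Kupffer cells line the sinusoids of the liver, where they take up bacteria, dying cells and aged erythrocytes from portal blood. In the mouse they arise largely from fetal precursors and renew in place, and when they are lost, monocytes from blood can take up the niche and acquire the same genes over days. Their identity is held by signals from neighboring cells, among them ligands of the CSF1 receptor, Notch ligands and bone morphogenetic proteins. Clec4f is the member most restricted to Kupffer cells in mice, whereas Adgre1, Csf1r and Mpeg1 are shared by macrophages of many tissues.

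Values were log2 expression from Affymetrix Mouse Gene 1.0 ST arrays, 1 array per mouse. Array medians lay between 4.24 and 4.348. Every pair of arrays correlated at 0.979 to 0.995 over the 23410 probe sets that carry a gene symbol. Hepatocyte markers were well above these medians in every liver (albumin averaged 13.43 in HFM and 13.52 in HFS livers), and 9 of the 10 Kupffer cell genes were above the median of their own array in all 14 livers, the exception being Cd163, in 10 of 14. Because whole liver was profiled, more Kupffer cells and more RNA of these genes per cell cannot be told apart. The livers HFM2 and HFS5 stood apart from their groups by neutrophil markers, and results are therefore also given without them.

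All 10 Kupffer cell genes had a higher mean in HFM livers than in HFS livers, by 0.07 to 0.56 on the log2 scale (median 0.26, against a median of 0.00 over all genes, of which 50.5% were above 0). The 10 genes varied together among livers, with a median pair r of 0.73 after the group means were subtracted. Their 10 directions are therefore not separate observations. At an unadjusted limma p under 0.05, 3 of the 10 were higher, namely Mpeg1, Cd5l and Marco, and 0 were lower. Of all 23410 probe sets tested, 3.57% were higher and 2.9% were lower at that threshold. With the array medians subtracted, those shares were 5.4% and 1.7%, so that 76.1% of the calls were higher in place of 55.2%. Among the 11705 brightest probe sets, the shares were 4.55% and 1.85%, and 71% of the calls were higher. Those probe sets held 9 of the 10 genes, of which 3 were higher at that threshold. Mpeg1 also had a p under 0.01 and at least 1.2-fold, the cutoffs of the study's methods without their Bonferroni correction, which 0.453% of probe sets passed in that direction. None of the 10 passed a Benjamini-Hochberg adjusted limma p of 0.05 (0.714 to 0.961), nor did any other probe set (0.0%). The groups overlapped for all 10 genes. Cd5l, Adgre1 and Marco are among the genes that the study itself listed as changed in these livers, so their direction here is not independent evidence.

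**Figure D1:**
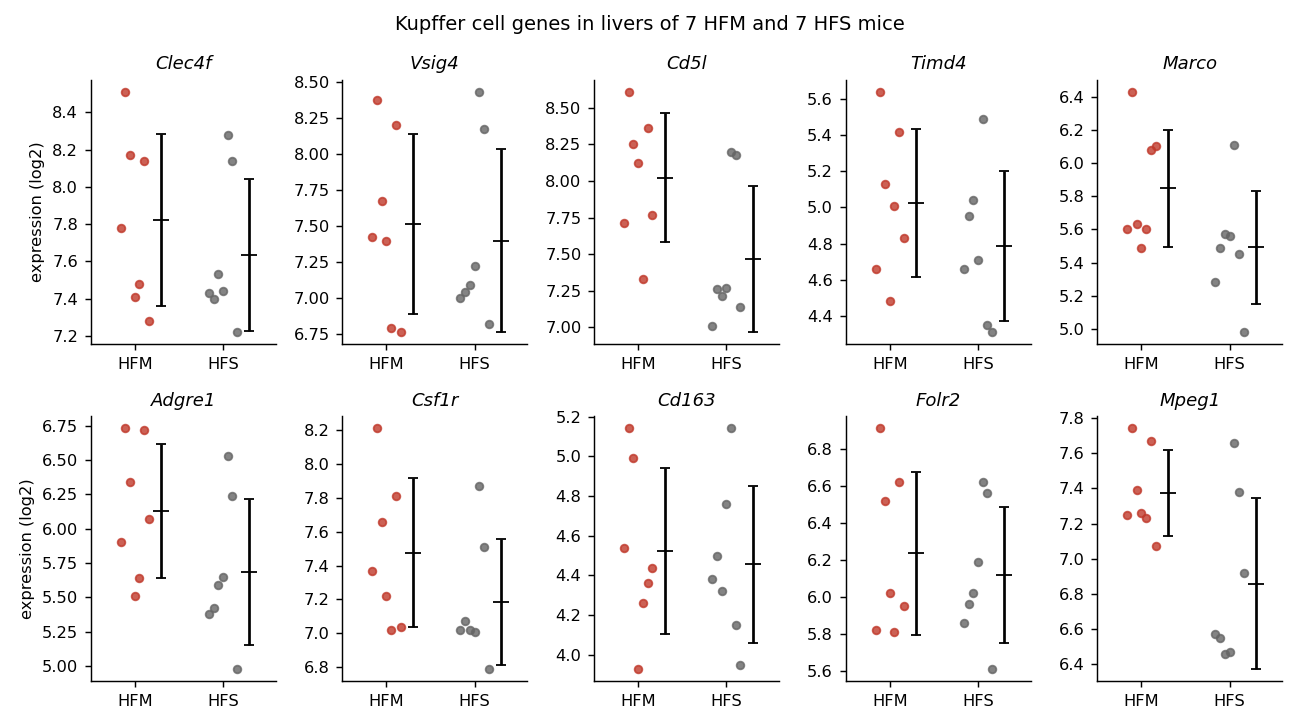
Log2 expression of the 10 Kupffer cell genes (vertical axis, 1 panel per gene), with 1 point per mouse and the group mean ± SD, HFM left and HFS right. The groups overlap in every panel, and the means differ by 0.56 for Cd5l and by 0.07 for Cd163.

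Mpeg1, which encodes the pore-forming protein perforin-2 that macrophages use against engulfed bacteria, ran from 7.07 to 7.74 in HFM livers (median 7.26) and from 6.46 to 7.66 in HFS livers (median 6.57). All 7 HFM livers lay above the HFS mean, and 5 of the 7 HFS livers lay below the lowest HFM liver, the others being HFS5 at 7.66 and HFS6 at 7.38. The difference was 0.52 ± 0.17 (SE, 95% interval 0.15 to 0.88), or 1.43-fold, with a limma p of 0.00774 (adjusted 0.714) and an exact permutation p of 0.0297 (two-sided, 3432 assignments). The limma p was no longer under 0.01 with quantile normalization (0.0111), array weights, a trended and robust prior, an unmoderated test or all probe sets, nor when any of HFM2, HFM3, HFM4, HFM6, HFS1, HFS2, HFS3, HFS4 or HFS7 was left out (0.0101 to 0.0202), and it stayed under 0.05 in all of these. Without HFS5, 3 of the 10 genes passed both cutoffs. At p under 0.05 alone, 3.54% of all probe sets were higher without HFS5, and their share at both cutoffs was not computed.

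Cd5l encodes a secreted scavenger protein (also called AIM) that supports macrophage survival and is carried in blood by IgM. It ran from 7.33 to 8.61 in HFM livers (median 8.12) and from 7.01 to 8.20 in HFS livers (median 7.26). As for Mpeg1, 5 HFS livers were below every HFM liver and the remaining pair, HFS5 and HFS6, lay at 8.20 and 8.18. The difference was 0.56 ± 0.21 (95% interval 0.12 to 0.99), or 1.47-fold, with a limma p of 0.016 (adjusted 0.763) and an exact permutation p of 0.0472.

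Marco encodes a class A scavenger receptor that binds bacteria. It ran from 5.49 to 6.43 in HFM livers (median 5.63) and from 4.98 to 6.11 in HFS livers (median 5.49). Only HFM2 was above every HFS liver. The difference was 0.35 ± 0.16 (95% interval 0.02 to 0.69), or 1.28-fold, with a limma p of 0.0373 (adjusted 0.77) and an exact permutation p of 0.0624. This call was lost when any of HFM2, HFM6, HFM7, HFS1, HFS2, HFS6 or HFS7 was left out, with p between 0.0508 (without HFS2) and 0.0977 (without HFM2).

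The surface receptors Adgre1 and Csf1r had higher HFM means without passing the threshold. Adgre1, an adhesion G protein-coupled receptor widely stained for to find macrophages, ran from 5.51 to 6.73 in HFM livers (median 6.07) and from 4.98 to 6.53 in HFS livers (median 5.59). HFM2 and HFM6 were above all HFS livers, and HFS7 was the lowest liver of all. The difference was 0.45 ± 0.23 (95% interval -0.03 to 0.92) with a limma p of 0.0633 (adjusted 0.786) and an exact permutation p of 0.128. The limma p was 0.0117 without HFS5, 0.026 without HFM4, 0.0306 without HFS6 and 0.0347 without HFM5. Csf1r, the receptor through which CSF1 and IL-34 keep macrophages alive, ran from 7.02 to 8.21 in HFM livers (median 7.37) and from 6.79 to 7.87 in HFS livers (median 7.02). Of the HFS livers, 4 lay below every HFM liver, HFS1, HFS3 and HFS4 by small margins (7.01 to 7.02) and HFS7 at 6.79. The difference was 0.29 ± 0.18 (95% interval -0.09 to 0.67) with a limma p of 0.127 (adjusted 0.815) and an exact permutation p of 0.203, and a limma p of 0.0268 without HFS5.

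The remaining 5 genes had differences of 0.07 to 0.24, each with a 95% interval that includes 0. Timd4, a phosphatidylserine receptor for dying cells and a marker of long-resident Kupffer cells, ran from 4.48 to 5.64 in HFM livers (median 5.01) and from 4.31 to 5.49 in HFS livers (median 4.71), a difference of 0.24 ± 0.18 (limma p 0.214, adjusted 0.837, exact permutation p 0.297). Clec4f, a C-type lectin that binds galactose-bearing glycans, ran from 7.28 to 8.51 in HFM livers (median 7.78) and from 7.22 to 8.28 in HFS livers (median 7.44). Its groups shared nearly their whole range. The difference was 0.19 ± 0.19 (95% interval -0.22 to 0.60, limma p 0.337, adjusted 0.88, exact permutation p 0.41).

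Vsig4, a complement receptor for C3 fragments, had the largest SD within groups and ran from 6.76 to 8.37 in HFM livers (median 7.42) and from 6.82 to 8.43 in HFS livers (median 7.09). Here the HFS range reached higher than the HFM range. The difference was 0.12 ± 0.28 (95% interval -0.46 to 0.70, limma p 0.673, adjusted 0.957, exact permutation p 0.72), and -0.02 without HFM2. Folr2, a folate receptor of resident macrophages, ran from 5.81 to 6.91 in HFM livers and from 5.61 to 6.62 in HFS livers, with a median of 6.02 in both groups. The difference was 0.12 ± 0.18 (95% interval -0.26 to 0.50, limma p 0.529, exact permutation p 0.6). Cd163, the scavenger receptor that clears haptoglobin-hemoglobin complexes, ran from 3.93 to 5.14 in HFM livers (median 4.44) and from 3.95 to 5.14 in HFS livers (median 4.38). Its difference of 0.07 ± 0.18 (95% interval -0.32 to 0.45, limma p 0.721, exact permutation p 0.763) turned to -0.04 without HFM2, -0.02 without HFS7 and -0.01 without HFM3. The intervals of Clec4f, Vsig4, Folr2 and Cd163 reach 0.45 to 0.70 at their upper ends, so differences up to that size are not excluded for these genes.

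**Figure D2:**
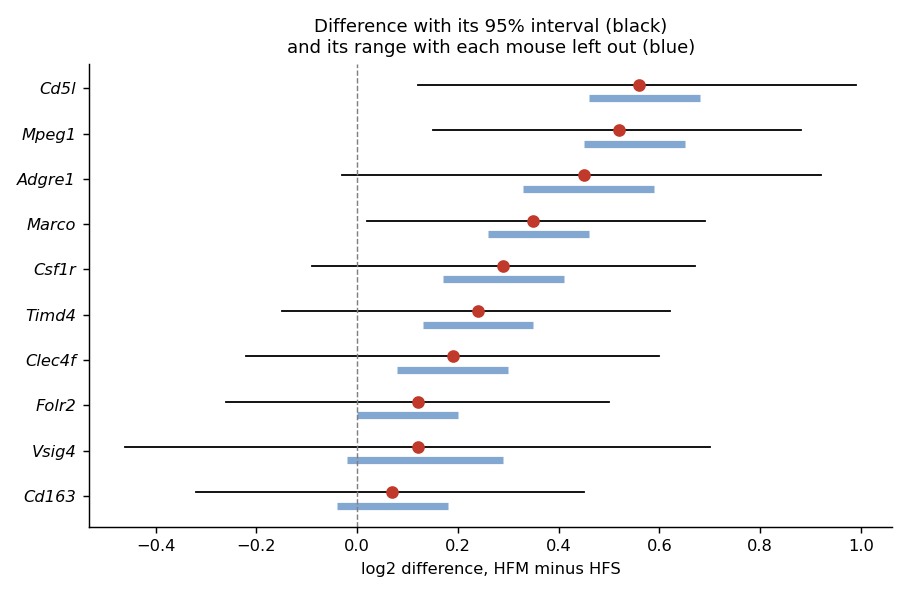
Difference HFM minus HFS of the 10 Kupffer cell genes (horizontal axis, log2) with 95% intervals from limma. All 10 points lie above 0, and the intervals of Mpeg1, Cd5l and Marco leave out 0.

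The SD within groups was 0.35 for Marco to 0.63 for Vsig4, against a median of 0.15 over all genes, and even Marco, the least variable of the 10, varied more than 97.8% of genes. From the lowest to the highest liver the genes spanned a median of 1.38. The same livers were high for nearly all members. HFM2 was the highest HFM liver for 10 of 10 genes, HFS5 was the highest HFS liver for 10 of 10, and HFS7 was the lowest HFS liver for 8. HFM6 and HFS6 each ranked among the top 2 of their group for 7 genes. Averaged over the 10 genes and set against the mean of all 14 mice, HFM livers ran from -0.24 (HFM5) to 0.78 (HFM2) with HFM6 at 0.49 and HFM3 at 0.32, and HFS livers ran from -0.58 (HFS7) to 0.58 (HFS5), with HFS6 at 0.16 and the 4 others from -0.40 to -0.22.

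**Figure D3:**
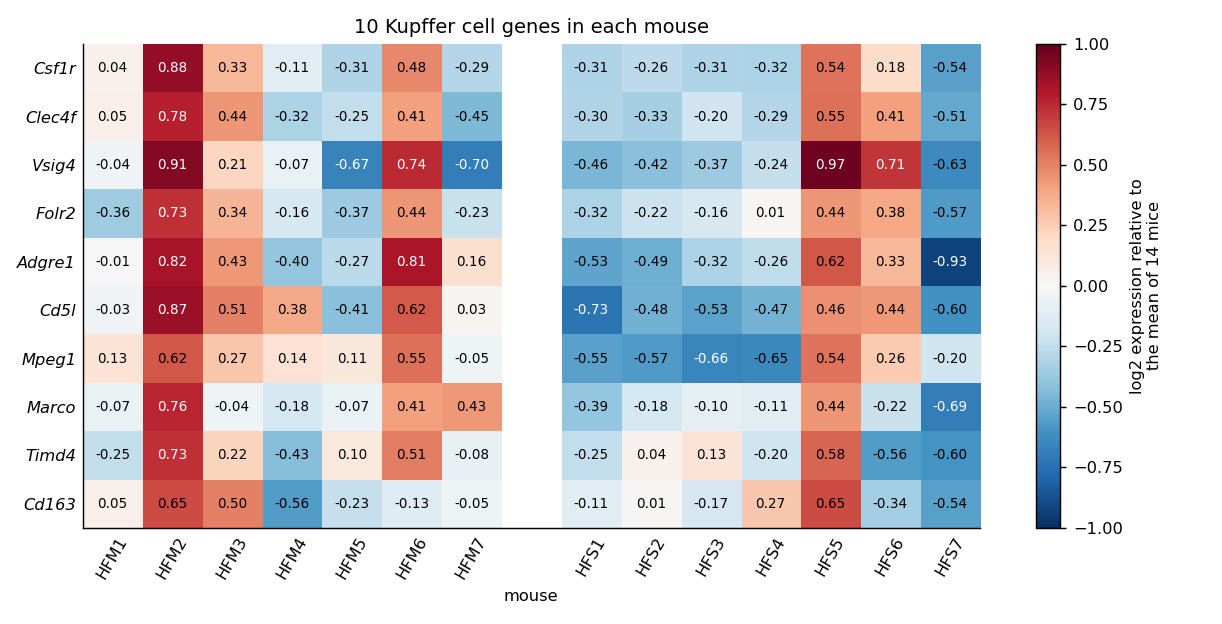
Log2 expression of each Kupffer cell gene (down the page) in each mouse (across, HFM then HFS) relative to the mean of the 14 mice, red above and blue below. HFM2 and HFS5 are the highest livers of their groups for all 10 genes.

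HFM2 and HFS5 were also the livers with the highest neutrophil markers. The mean of 11 such genes was 1.14 in HFM2, against -0.18 to -0.02 in the other HFM livers, and 0.38 in HFS5, against -0.22 to -0.06 in the other HFS livers. S100a9, a calcium-binding protein of neutrophils, was 7.00 in HFM2 and 5.48 in HFS5. Of the neutrophil list, Camp was above the array median in all 14 livers, S100a9 in 13 and Mpo in 12. S100a8 and Ngp were above it in 2 livers, and Retnlg and Ltf in 1. Ly6g, Mmp8, Elane and Cxcr2 were above it in 0 of 14. With both livers left out, an alternative chosen after the data were seen, Mpeg1 differed by 0.59 (limma p 0.000816), Cd5l by 0.58 (p 0.00795), Marco by 0.36 (p 0.0107) and Adgre1 by 0.49 (p 0.0292). These 4 differences were as large as with all 14 livers or larger. Both livers were the highest of their group for 10 of 10 Kupffer cell genes, so leaving them out also narrows the spread within groups. The SE of Mpeg1 was 0.14 in place of 0.17. The smaller p values are therefore no independent check. Of all probe sets, 2.49% were higher at p under 0.05 without these 2 livers. The others did not pass, with 0.28 for Csf1r (p 0.059), 0.25 for Timd4, 0.18 for Clec4f, 0.15 for Vsig4, 0.09 for Folr2 and 0.08 for Cd163, and the adjusted p was 0.864 to 0.99 over the 10 genes.

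With the group means subtracted, the 45 pairs of Kupffer cell genes correlated over the 14 livers at r = 0.33 to 0.97 (median 0.73) and rho = 0.03 to 0.93 (median 0.62). All 45 were above 0. A permutation test within groups (100000 draws, two-sided, Benjamini-Hochberg over 45 pairs) passed 38 pairs by r and 25 by rho. For each pair, r was also taken without the 2 livers farthest from the median of 1 of its genes, so the livers left out differed between pairs. It then ran from -0.30 to 0.96 (median 0.55). Within HFM livers alone r was 0.49 to 0.97 (median 0.81) and within HFS livers alone 0.19 to 0.99 (median 0.84).

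**Figure D4:**
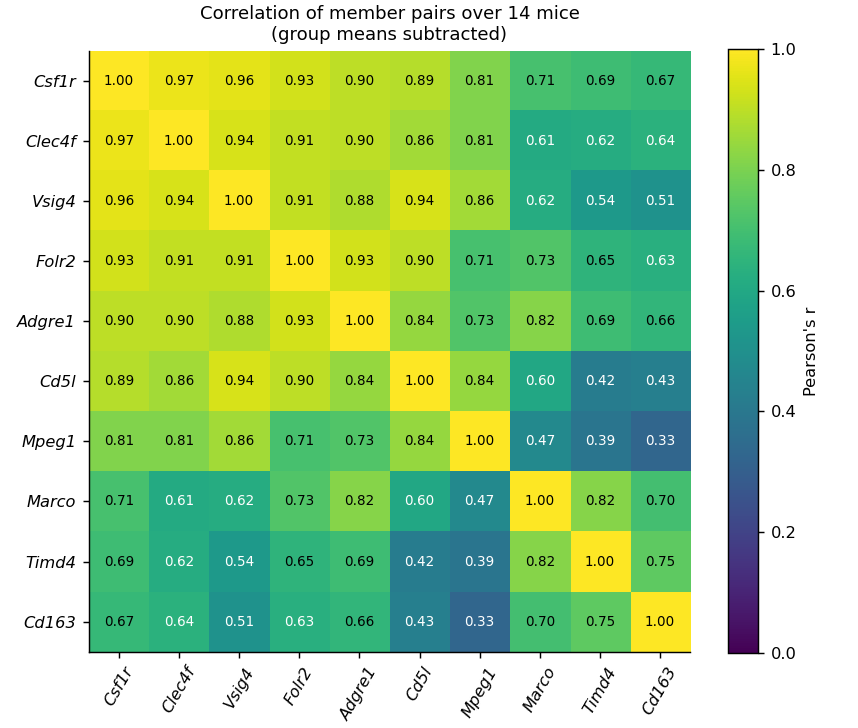
Pearson r for each pair of Kupffer cell genes over 14 mice with the group means subtracted. Clec4f, Vsig4, Cd5l, Adgre1, Csf1r and Folr2 form a block at 0.84 to 0.97, and Mpeg1 with Cd163 is the lowest pair at 0.33.

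The closest pair was Clec4f and Csf1r, with r = 0.97 and rho = 0.93 (permutation p 2e-05 and 0.0001, adjusted 0.000225 and 0.00108). Without the 2 livers farthest from the Clec4f median, r was 0.96. Vsig4 and Csf1r were nearly as close (r = 0.96, rho = 0.91, permutation p 1e-05, the smallest these draws can give, adjusted 0.000225). Grouped after the values were seen, Clec4f, Vsig4, Cd5l, Adgre1, Csf1r and Folr2 correlated with each other at 0.84 to 0.97, and at 0.75 to 0.96 with 2 livers left out per pair. Timd4, Marco and Cd163 correlated with each other at 0.70 to 0.82, but at 0.35 to 0.61 with 2 livers left out per pair. As these livers differed between pairs, the ranges without them do not cover the same livers. Between these sets r was 0.42 to 0.82. Mpeg1 went with the first set (0.71 to 0.86) and less with Timd4, Marco and Cd163 (0.33 to 0.47, and -0.30 to -0.10 with 2 livers left out per pair). For Mpeg1 and Cd163, r was 0.33 and rho 0.03 (permutation p 0.268 and 0.919). The difference between the sets was not tested.

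Clec4f, Vsig4 and Folr2, of the tightly correlated set, and Timd4, outside it, have a short promoter motif in common. The 250 bases before the start of these 4 genes are printed because each holds GGAAGT, the core bound by ETS factors such as PU.1, the master regulator of macrophages. They are from RefSeq (GRCm38.p6), with capitals marking GGAAGT and, in Folr2 and Timd4, the ETS-IRF composite element that overlaps it. Clec4f lies at chr6:83656117-83656366 on the minus strand, Vsig4 at chrX:96293439-96293688 on the minus strand, Folr2 (1 of its 2 windows) at chr7:101857191-101857440 on the minus strand and Timd4 at chr11:46810549-46810798 on the plus strand.
Clec4f: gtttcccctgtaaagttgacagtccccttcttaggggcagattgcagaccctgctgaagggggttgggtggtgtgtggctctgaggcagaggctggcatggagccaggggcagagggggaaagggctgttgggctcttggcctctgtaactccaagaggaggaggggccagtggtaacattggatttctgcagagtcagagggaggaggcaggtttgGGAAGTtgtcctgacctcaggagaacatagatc
Vsig4: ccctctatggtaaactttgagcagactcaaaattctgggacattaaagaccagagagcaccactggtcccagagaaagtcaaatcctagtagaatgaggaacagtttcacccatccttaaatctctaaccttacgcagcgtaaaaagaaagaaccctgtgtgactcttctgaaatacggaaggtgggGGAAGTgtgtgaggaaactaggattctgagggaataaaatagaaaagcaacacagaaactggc
Folr2: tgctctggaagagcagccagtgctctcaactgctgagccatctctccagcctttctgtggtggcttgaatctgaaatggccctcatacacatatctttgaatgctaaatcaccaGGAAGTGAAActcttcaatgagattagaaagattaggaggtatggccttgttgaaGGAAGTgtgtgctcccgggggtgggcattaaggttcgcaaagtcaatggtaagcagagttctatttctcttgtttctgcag
Timd4: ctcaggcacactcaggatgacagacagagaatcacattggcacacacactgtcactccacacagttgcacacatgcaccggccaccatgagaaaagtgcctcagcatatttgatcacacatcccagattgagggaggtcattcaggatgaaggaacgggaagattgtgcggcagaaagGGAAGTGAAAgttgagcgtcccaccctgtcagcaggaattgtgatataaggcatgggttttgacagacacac
Searched on both strands in the RefSeq windows of 8 members (9 windows), GGAAGT was in 4 windows, against 19.7% of 32841 windows of all genes. Between the nearest copy and the start lay 27 bases in Clec4f, 57 in Vsig4, 66 in Timd4 and 75 in Folr2. The ETS-IRF composite was in 2 windows, against 2.3% of all windows. Other motifs were searched too, and GGAAGT was not the most frequent. The MAF motif TGCTGA was in 5 windows, those of Cd5l, Clec4f, Folr2 and Timd4, against 16.1% of all windows. The nuclear receptor motif AGGTCA was in 2 windows, those of Clec4f and Timd4. The windows of Mpeg1, Cd5l, Marco and Cd163 hold no GGAAGT. These motifs were chosen after the sequences were seen, and a match is a description and not a binding site.

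As Clec4f is the most Kupffer-restricted member, the other genes were compared again with its level as a covariate, and once more with that of Csf1r, both chosen after the data were seen. With Clec4f, the difference was 0.38 ± 0.11 for Mpeg1 (limma p 0.00372), 0.38 ± 0.12 for Cd5l (p 0.00575) and 0.24 ± 0.11 for Adgre1 (p 0.0433), while Marco had 0.26 ± 0.13 (p 0.0685) and Vsig4 -0.14 ± 0.11 (p 0.196). The adjusted p was 0.995 for each. With Csf1r, Mpeg1 had 0.29 ± 0.12 (p 0.0233) and Cd5l 0.25 ± 0.11 (p 0.0373), while Adgre1 had 0.12 ± 0.12 (p 0.328), Marco 0.18 ± 0.13 (p 0.18) and Vsig4 -0.31 ± 0.10 (p 0.00396), all with an adjusted p of 1.0. Thus Mpeg1 and Cd5l were higher in HFM livers at a given level of either gene by the unadjusted p, and by no adjusted p. With Csf1r, the smallest p among the members was that of Vsig4, which was lower. Clec4f (-0.11), Folr2 (-0.15) and Cd163 (-0.13) were also below 0 with Csf1r. Of all probe sets, 2.51% were higher and 2.08% lower at p under 0.05 with Clec4f, and 1.87% and 1.65% with Csf1r.

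The genes most like the Kupffer cell genes, by the correlation of their group-centered values with the mean of the 10 over the 14 livers, were Cfp, Wfdc17, Fyb, Ly86 and Pilra. Cfp encodes properdin, the stabilizer of the alternative complement pathway (r = 0.94, rho = 0.83). Fyb is an adaptor of hematopoietic cells (r = 0.94, rho = 0.80), and Ly86 (MD-1) pairs with the Toll-like receptor homolog RP105 (r = 0.93, rho = 0.77). Wfdc17 had r = 0.94 and rho = 0.83. Pilra, an inhibitory receptor of myeloid cells, had r = 0.93 and rho = 0.75 and averaged 4.46 in HFM and 4.01 in HFS livers, which is higher by 0.45 ± 0.13 (limma p 0.00283). Of 19928 other genes, 72 (0.361%) had r over 0.8 and 13 were as far below 0.

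Of 10 measured ligands, binding partners and niche signals of these genes, 1 was higher in HFM livers and 0 lower at an unadjusted limma p under 0.05. Csf1, the ligand of Csf1r, averaged 5.25 ± 0.33 in HFM and 5.36 ± 0.21 in HFS livers (SD, difference -0.11 ± 0.13, limma p 0.412), and Il34, the other ligand, averaged 4.28 ± 0.16 in HFM and 4.38 ± 0.11 in HFS livers (p 0.189). Hp, the acute phase protein whose complexes with hemoglobin Cd163 takes up, averaged 12.52 ± 0.25 in HFM and 12.26 ± 0.23 in HFS livers and so differed by 0.27 ± 0.12 (limma p 0.0332, exact permutation p 0.0664). Hp is among the genes the study listed as changed. Gdf2 (BMP9) differed by 0.12 ± 0.06 (limma p 0.0654), and the exact permutation p was 0.00583. Tgfb1 differed by 0.12 (p 0.319), Dll1 by -0.07 (p 0.494), Dll4 by 0.04 (p 0.632), and Havcr1 (TIM-1), a binding partner of Timd4, by -0.00 (p 0.967). Cd36, through which the Cd5l protein enters adipocytes in mice, differed by 0.11 (p 0.496), and Fasn, the fatty acid synthase it then inhibits, by 0.20 (p 0.632).

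Among 10 measured transcription factors of macrophages, 2 were higher and 0 lower. Zeb2, which holds Kupffer cell identity in mice, averaged 5.43 ± 0.29 in HFM and 5.18 ± 0.08 in HFS livers (difference 0.25 ± 0.10, limma p 0.0266). Nr1h3 (LXR alpha), which drives Kupffer cell genes including Cd5l, averaged 7.63 ± 0.17 in HFM and 7.46 ± 0.13 in HFS livers (0.17 ± 0.08, p 0.0496). Spi1, which encodes PU.1, differed by 0.32 ± 0.16 (p 0.0546).

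Of 19 other Kupffer-enriched genes, 5 were higher and 1 was lower, and 13 passed in neither direction (median difference 0.17). Vcam1, an adhesion molecule, differed by 0.44 ± 0.12 (limma p 0.00138), and Hmox1, which degrades heme, averaged 7.11 ± 0.44 in HFM and 6.58 ± 0.21 in HFS livers (0.52 ± 0.16, p 0.00341). Clec1b differed by 0.50 ± 0.18 (p 0.0119), C1qb by 0.41 ± 0.17 (p 0.0277) and Il18bp, which binds interleukin-18, by 0.23 ± 0.08 (p 0.00956). Ccl24, a chemokine, differed by -0.23 ± 0.09 (p 0.024), and was above the array median in 1 of 14 livers. Of 11 general macrophage genes, 4 were higher and 0 lower, with a median of 0.30. These were Tyrobp (0.51 ± 0.17, p 0.0059), Fcer1g (0.46 ± 0.16, p 0.00813), Itgb2 (0.34 ± 0.13, p 0.0174) and Cd68 (0.31 ± 0.13, p 0.034). Vcam1, Hmox1, Zeb2, Cd68, Tyrobp, Fcer1g, Itgb2, Fyb, Ly86 and Pilra are also in the study's own lists.

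Of 8 monocyte genes, 0 passed in either direction (median 0.04, mouse means -0.18 to 0.39 in HFM and -0.10 to 0.13 in HFS livers). Cx3cr1 was above the array median in all 14 livers, Plac8 in 7 and Nr4a1 in 3. Ccr2, Itgam, S100a4, Chil3 and F13a1 were above it in 0 of 14. None of 9 proliferation genes passed (median 0.03), nor did any of 10 hepatocyte (0.06), 10 sinusoidal endothelial (-0.03), 5 lipid-associated macrophage (0.20), 4 cholangiocyte (-0.06) or 7 dendritic cell genes (-0.06). Colec11 of the stellate cell list (0.22, p 0.00905), Cd3g of the T and NK cell list (0.22, p 0.00563) and Cxcr2 of the neutrophil list (0.23, p 0.0283) were higher, and Cd79a of the B cell list was lower (-0.24, p 0.0279), the last 3 at levels below the array median. The list median was 0.20 for stellate cells (7 of 8 genes above 0), 0.03 for T and NK cells, 0.10 for neutrophils and 0.00 for B cells. The part of these genes in the Kupffer cell differences was not tested.

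**Figure D5:**
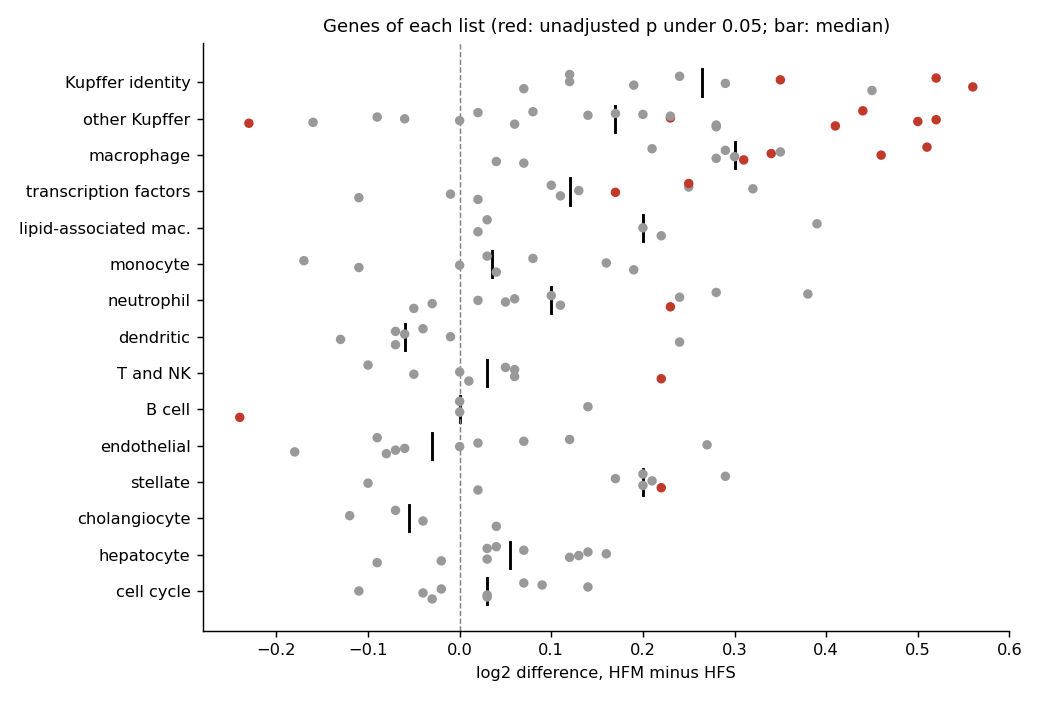
Difference HFM minus HFS (horizontal axis, log2) of the genes of each list, 1 point per gene, red for an unadjusted limma p under 0.05. A bar marks the median of each list, which is 0.26 for the 10 Kupffer cell genes.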

How the data were processed

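Total RNA of whole liver was hybridized to Affymetrix Mouse Gene 1.0 ST arrays, 1 mouse per array. The authors turned the scans into 1 value per probe set with Affymetrix Expression Console and deposited log2 expression on a scale common to all arrays (1.332 to 14.06). RMA is the algorithm in the labels and PLIER in the methods. The version of Expression Console, the probe annotation and the build: not given in the sources used here. For their own calls they filtered in Partek on a p under 0.01 and 1.2-fold, with a Bonferroni correction. Here both cutoffs were applied without that correction. All value columns were used (0 left out).

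From the deposited log2 values, HFM minus HFS was fitted with limma 3.58.1 in R 4.3.3 (lmFit and eBayes, no covariate) over 23410 probe sets that carry a gene symbol (12146 without were left out), with Benjamini-Hochberg adjustment over all of them and no filter on low signal. Exact permutation tests ran over all 3432 assignments. No array batch was taken into account. Named genes were the 10 members, all ligands and niche signals, and the 5 genes most like the members. Of the transcription factor, other Kupffer-enriched and general macrophage lists, at least the 3 genes with the smallest p were named. Of the remaining lists, genes with an unadjusted limma p under 0.05 or an outlying liver were named. All genes of the neutrophil and monocyte lists were named for their level. Others are few behind a count, or the text says that their values had been seen. Members and lists were chosen with earlier results of these data known. The fit was tested on simulated data. The other settings tried were a block for replicate number, quantile normalization, array medians subtracted, array weights, other priors, all probe sets and leaving out each liver.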

Additional observations from a re-analysis of the deposited data

Results flagged for a closer look

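None of the 10 Kupffer cell genes had a liver far from its group by Dixon's criterion. Among 156 groups of 7 livers tested, 15 did, and chance gives about 1 in 20. HFM2 was far above the other HFM livers for Csf1 (5.95, others 4.93 to 5.25), Itgam (4.20, others 3.31 to 3.45), S100a9 (7.00, others 4.26 to 4.92) and the means of the monocyte (0.39) and neutrophil (1.14) lists. HFS5 was far from the other HFS livers for S100a9 (5.48, others 4.41 to 4.77), Gpnmb (3.40, others 3.86 to 4.13) and the means of the neutrophil (0.38) and B cell (-0.14) lists. HFS6 was low for Gdf2 (4.79, others 4.99 to 5.03) and high for Il18bp (5.96, others 5.55 to 5.67), and HFM3 was high for Gdf2 (5.30). The other livers were HFM5 for Epcam (3.93), HFS2 for Dnase1l3 (6.57) and HFM1 for the mean of the hepatocyte list (-0.19, others 0.02 to 0.15).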

How the results depend on the processing

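Over 24 other settings, Mpeg1 and Cd5l kept an unadjusted limma p under 0.05 in 24 and Marco in 14, and 0 Kupffer cell genes passed an adjusted p in any. The count of 3 at p under 0.05 ran from 2 to 5 with 1 liver left out (5 without HFS5). The share of all probe sets called higher ran from 2.49% (without HFM2) to 5.4% (without HFM5) and was 3.54% without HFS5. The count of 1 at p under 0.01 and 1.2-fold was 0 with quantile normalization, array weights, a trended and robust prior, an unmoderated test or all probe sets, ran from 0 to 3 with 1 liver left out (3 without HFS5), and was 2 with Clec4f as a covariate or with HFM2 and HFS5 both left out and 0 with Csf1r as a covariate. The 5 other Kupffer-enriched genes that were higher ran from 4 to 7 with 1 liver left out. Differences reversed for Clec4f (-0.11 with Csf1r as a covariate), Vsig4 (-0.02 without HFM2 to 0.29 without HFS5, -0.14 and -0.31 with Clec4f and Csf1r), Folr2 (-0.05 and -0.15 with the same) and Cd163 (-0.07 with array weights, -0.05 and -0.13 with the covariates, and -0.04 to 0.18 with 1 liver left out). The cause was not tested. With the replicate number as a block, 4 members passed p under 0.05, Adgre1 added (p 0.0475), beside 3.13% of all probe sets called higher. Same-numbered livers correlated at -0.197 to 0.138 and 0 of 7 correlated best with their own number, so the numbers do not pair the livers. No measure of background was used, and 7 livers per group limit the precision of every value.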

Other observations

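The acute phase genes Saa1 and Lcn2, chosen after their values were seen, were set against the mean of the 10 Kupffer cell genes over the 14 livers with the group means subtracted. Lcn2 had r = 0.76 and rho = 0.57 (permutation p 0.00203 and 0.0411, adjusted over 2 relations 0.00406 and 0.0822), with r = 0.70 without the 2 livers farthest from the median, 0.80 within HFM and 0.81 within HFS livers. Saa1 had r = 0.58 and rho = 0.45 (permutation p 0.0313 and 0.121), with r = 0.45 without those livers, 0.51 within HFM and 0.68 within HFS livers.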
